A study of Mus musculus with 9 samples.

Results

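The 10 genes described here encode the ligand TGF-beta 1 (Tgfb1), its receptors (Tgfbr1, Tgfbr2), the inhibitory SMADs (Smad6, Smad7), the SKI corepressors (Ski, Skil) and the inhibitor of DNA binding proteins (Id1, Id2, Id3). They were taken by symbol from a count table of 27179 genes, in which each of the 10 had a row and each passed the filter on low counts. The table holds polyadenylated RNA of alveolar macrophages that were purified by flow sorting from C57BL/6 mouse lung at 1 week of age. A wild type group of 4 libraries was set against 5 libraries with the genotype Suz12 cKO, a conditional knockout of Suz12, which encodes a core subunit of the histone-methylating Polycomb repressive complex 2. The series text calls the libraries biological replicates. The sources used here do not state the Cre driver, the deleted exons, the sex of the mice or whether a library is 1 mouse or a pool, and the p-values measure the spread between these libraries only.

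TGF-beta 1 is secreted in a latent form and, once released, joins the type II receptor TGFBR2 to the type I receptor TGFBR1, a kinase that phosphorylates SMAD2 and SMAD3. These enter the nucleus with SMAD4, while SMAD7 blocks the type I receptor, SMAD6 mainly opposes the related bone morphogenetic protein (BMP) branch, and SKI and SKIL hold SMAD complexes in a repressed state. Smad7 and Skil are themselves targets of the pathway and act as its feedback brakes, and the Id genes are classical targets of the BMP branch. ID proteins lack a basic region and keep E proteins from binding DNA. Alveolar macrophages make TGF-beta 1 and need TGFBR2 to mature and persist.

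In the knockout libraries Smad7 and Skil rose and Id3 fell, while the transcripts of the ligand, both receptors, Smad6, Ski, Id1 and Id2 showed no change that passed the test as counted. Thus 3 of the 10 genes passed an adjusted p of 0.05, 2 of them higher and 1 lower, where 19.9% of 12840 tested genes passed in either direction (8.97% higher and 11% lower). The test was the quasi-likelihood test of edgeR with adjustment over all tested genes. For 5 of the 10 genes the libraries of one group all lay above those of the other, 3 higher in knockout and 2 lower, against 20.7% of all tested genes (10.9% higher and 9.88% lower). The median log2 fold change (knockout over wild type) was -0.01 over the 10 genes and 0.04 over all tested genes. All of these are bulk measurements, in which fewer cells of a type and less RNA per cell cannot be told apart.

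Totals ran from 13.8 to 25.3 M (M, 1e6) counts per library in wild type and from 18.6 to 45.6 M in knockout. Suz12 lay between 51.7 and 76.6 CPM (counts per 1e6, scaled between libraries by the TMM method) in wild type and between 11.9 and 21.8 CPM in knockout, a log2 fold change of -2.06 (adjusted p = 1.69e-05, edgeR). All 12 markers of alveolar macrophages that were examined were detected. Marco was called higher and Car4 and Krt79 lower (25% of the 12, against 19.9% of all tested genes). Siglecf was at 451 ± 39.2 CPM (SD, n = 4) in wild type and 418 ± 51.4 CPM (SD, n = 5) in knockout. Short genes tended to be lower in knockout. Of 1046 tested genes of 900 to 1300 bases, 25.9% were called lower and 2.77% higher, with a median log2 fold change of -0.21, and this class holds Id1 (911 bases), Id2 (1272) and Id3 (953). The source of this trend was not tested, and the main changes are also given after a correction that removes the trend with gene length from each library. Under that correction 16.1% of all tested genes were called (9.27% higher and 6.88% lower), and 4 of the 10 genes, 3 higher (Id1 in addition) and 1 lower. The split over all tested genes turned from 1152 higher and 1409 lower to 1190 and 883, and with libraries scaled by their totals alone to 1966 and 1013. Xist, which is transcribed in female cells, was high in 3 of the 4 wild type and 2 of the 5 knockout libraries, and with Xist as a covariate the calls of Smad7, Skil and Id3 held. Scaling by totals put the median over all genes at 0.15, from 0.04.

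**Figure D1:**
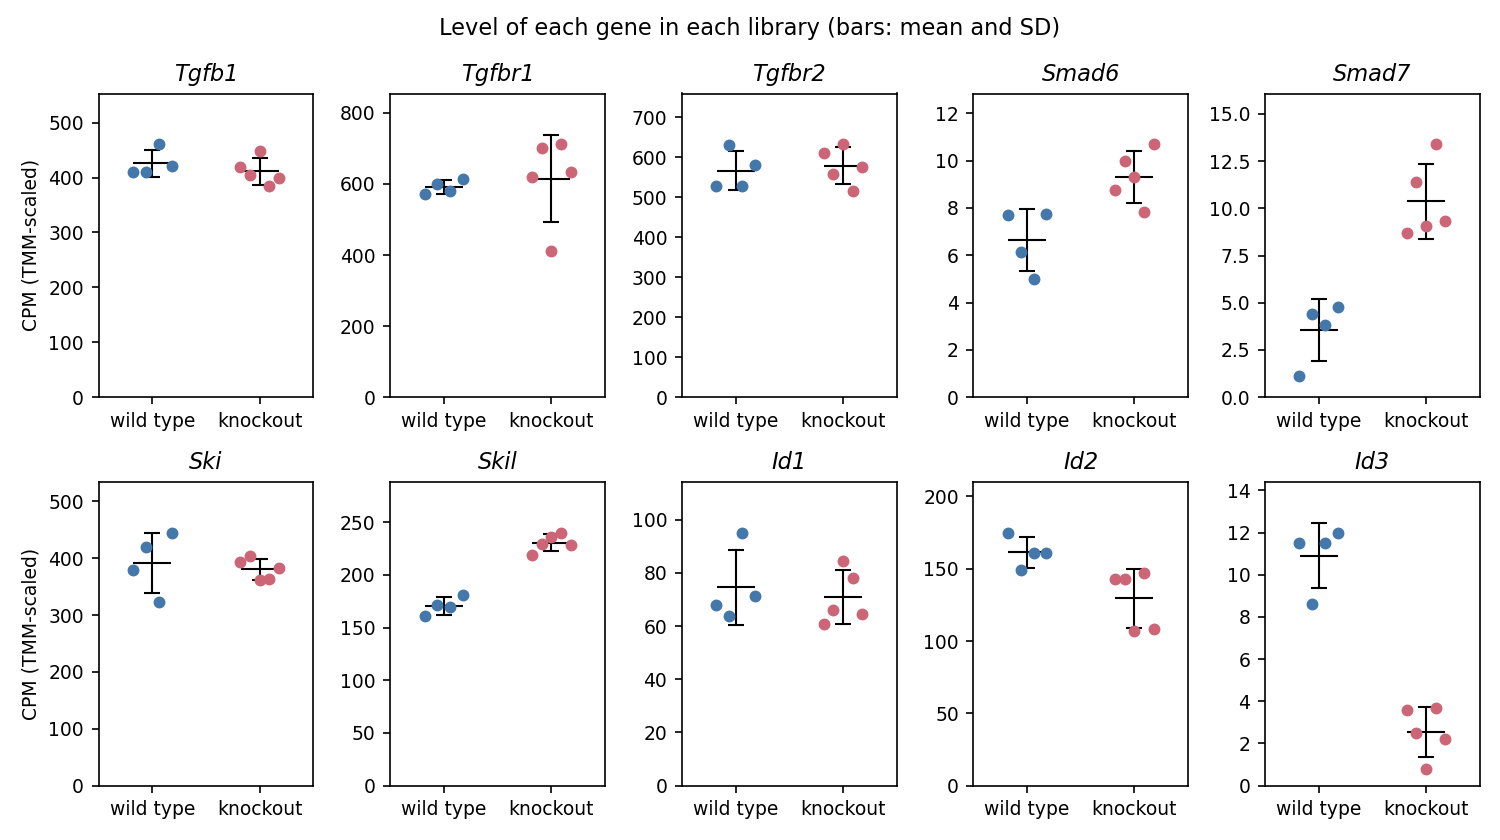
Each panel shows 1 gene, with its level in CPM of the TMM-scaled library on a linear axis from 0, a point for each of the 4 wild type and 5 knockout libraries, and the mean and SD as bars. Smad7 and Skil are higher in all knockout libraries than in all wild type libraries, and Id3 is lower.

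The ligand and its receptors were abundant and had similar levels in both groups. Tgfb1 (chromosome 7, positions 25687002 to 25705077 of GRCm38) stood at 410 to 461 CPM in the wild type group, while the knockout group had 384 to 449 CPM. Its difference, knockout minus wild type on the log2 scale, was -0.05 (SE 0.08, 95% interval -0.21 to 0.11, adjusted p = 0.703 by edgeR). Tgfbr2, the receptor that binds the ligand first, stood at 527 to 630 CPM in the wild type group, while the knockout group had 515 to 633 CPM (0.03, interval -0.15 to 0.21). The ranges of the groups overlapped for both genes. The signs of these small values were not stable: the length correction gave 0.01 for Tgfb1 and -0.05 for Tgfbr2, and scaling by totals gave 0.07 for Tgfb1.

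Tgfbr1, the signalling kinase, was at 571, 599, 580 and 614 CPM in wild type libraries 1 to 4 and at 619, 701, 411, 712 and 633 CPM in knockout libraries 1 to 5. Knockout library 3 lay below every other library, and the remaining 4 lay above every wild type library. The log2 fold change was 0.06 (interval -0.22 to 0.33) with all libraries and 0.18 without knockout library 3 (adjusted p = 0.0979 by edgeR), so no difference was called either way, and the length correction gave -0.04. In that library the ratio of Tgfbr2 to Tgfbr1 counts per base was 1.82, against 1.08 to 1.25 in wild type and 0.856 to 1.17 in the other knockout libraries. Knockout library 3 also lay apart in genes beyond the pathway. It had the least Itgax (641 CPM, against 1260 to 2560 in the others) and the most S100a8, a neutrophil marker (101 CPM, against 16 to 28.6). Of the other neutrophil markers examined, S100a9, Csf3r and Cxcr2 were also highest in that library. Mmp8 was lowest there (6.12 CPM), and Retnlg lay within the range of the other libraries.

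Of the inhibitory SMADs, Smad7 rose. It stood at 1.14, 4.41, 3.81 and 4.8 CPM in the wild type libraries, from 25 to 114 counts. The knockout libraries had 8.68, 11.4, 9.05, 13.4 and 9.32 CPM, from 258 to 446 counts. Every knockout library was above every wild type library. Mean levels were 3.54 ± 1.65 CPM (SD, n = 4) and 10.4 ± 1.99 CPM (SD, n = 5). Smad7 rose by 1.55 on the log2 scale (SE 0.34, adjusted p = 0.00605 by edgeR) and by 1.48 after the length correction (adjusted p = 0.0104 by edgeR). Wild type library 1 was far below its group, and its omission gave 1.26 on the log2 scale (adjusted p = 0.00437 by edgeR).

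Smad6, on chromosome 9, was similarly scarce, at 7.71, 6.13, 5.01 and 7.74 CPM in the wild type group, while the knockout group had 8.75, 10, 9.32, 7.82 and 10.7 CPM. The groups did not overlap, though by a narrow margin, and the test did not call a difference (0.48 on the log2 scale, SE 0.21, and adjusted p = 0.125 in edgeR). Per base of transcript, Smad7 was counted at 0.376 ± 0.189 of the level of Smad6 in wild type (SD, n = 4) and at 0.76 ± 0.223 in knockout (SD, n = 5), with no overlap between the groups. The 0.099 of wild type library 1 was the lowest ratio.

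Of the corepressors, Skil rose and Ski was not called. Skil (chromosome 3, positions 31095058 to 31122923) was at 161, 171, 169 and 181 CPM in the wild type group, while the knockout group was at 219, 229, 236, 240 and 228 CPM. The groups were separated by a gap wider than the range of either, and the spread within each was small. Skil rose by 0.44 on the log2 scale (SE 0.07, adjusted p = 9.94e-04 by edgeR), a 1.35-fold change, and by 0.34 after the length correction (adjusted p = 0.00772 by edgeR). Ski, its paralog, was at 323 to 445 CPM in the wild type group, while the knockout group had 361 to 404 CPM, with a log2 fold change of -0.04 (interval -0.24 to 0.16, adjusted p = 0.807 by edgeR) that turned to 0.07 with scaling by totals and to 0.03 without wild type library 4. The ratio of Skil to Ski counts per base, which does not depend on how libraries are scaled, was 0.331 to 0.426 in wild type and 0.453 to 0.537 in knockout.

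Of the Id genes, which encode short proteins with a helix-loop-helix domain, Id3 fell. Id3 (chromosome 4, positions 136143822 to 136145392) stood at 11.5, 8.61, 11.5 and 12 CPM in wild type, from 145 to 286 counts, and at 3.57, 2.51, 0.774, 3.68 and 2.19 CPM in knockout, from 29 to 169 counts. The highest knockout library was below the lowest wild type library by a wide margin. Mean levels were 10.9 ± 1.55 CPM (SD, n = 4) and 2.54 ± 1.18 CPM (SD, n = 5), and Id3 fell by 2.10 on the log2 scale (SE 0.36, adjusted p = 0.00114 by edgeR). The length correction gave -1.73 (adjusted p = 0.00561 by edgeR). Knockout library 3 had the least Id3, and its omission gave -1.87 on the log2 scale (adjusted p = 3.19e-04 by edgeR).

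Id2 (chromosome 12, positions 25093799 to 25096092) stood at 175, 149, 161 and 161 CPM in the wild type group, while the knockout group was at 143, 143, 107, 147 and 108 CPM. The groups did not overlap, by a narrow margin. The difference of -0.32 on the log2 scale (SE 0.11) did not pass in edgeR (adjusted p = 0.0565), passed in DESeq2 (-0.33, adjusted p = 0.0294) and in limma-voom (-0.34, adjusted p = 0.0382), and was -0.07 after the length correction (adjusted p = 0.714 by edgeR). Without knockout library 4 it passed in edgeR too (-0.37, adjusted p = 0.0435). Across its 20 alternative settings the adjusted p ran from 0.0294 to 0.94.

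Id1 (chromosome 2, positions 152736251 to 152737410) was at 67.9, 63.9, 95.1 and 71.2 CPM in the wild type group, while the knockout group was at 60.9, 66.1, 84.6, 78.1 and 64.7 CPM. The groups overlapped over most of their range. The log2 fold change was -0.07 as counted (interval -0.35 to 0.21, adjusted p = 0.76 by edgeR). With the length correction it turned to 0.31 (interval 0.1 to 0.52, adjusted p = 0.043 by edgeR), and with length and GC content corrected together it was 0.26 (adjusted p = 0.0851 by edgeR). Without wild type library 3 it was 0.08, and with scaling by totals 0.05. The direction of Id1 thus depended on these choices, whereas Id3 was lower under all 20 alternatives.

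**Figure D2:**
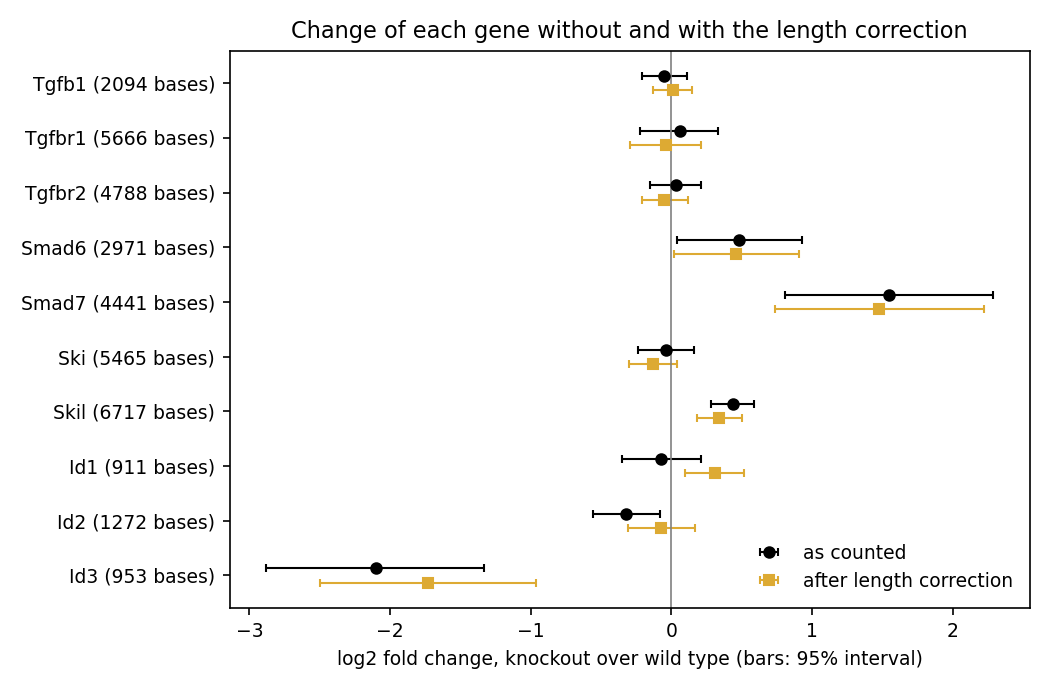
Points give the log2 fold change of each gene, knockout over wild type, from the edgeR fit on the counts (circles) and after the length correction (squares), with 95% intervals as bars and the counted length of each gene on the axis. The correction takes Id1 from -0.07 to 0.31, Id2 from -0.32 to -0.07 and Id3 from -2.10 to -1.73.

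Because Id1 and Id3 have nearly the same counted length, their ratio within a library is little exposed to the length trend. The ratio of Id3 to Id1 counts per base was 0.161, 0.129, 0.116 and 0.162 in wild type and 0.0561, 0.0362, 0.00875, 0.045 and 0.0324 in knockout. The groups did not overlap. The ratio of Id2 to Id1 was 1.21 to 1.85 in wild type and 0.906 to 1.68 in knockout, and those groups did overlap. Id3 made up 5.19 ± 0.516% (SD, n = 4) of the summed level of the 3 Id genes per kilobase in wild type and 1.45 ± 0.62% (SD, n = 5) in knockout. That sum was 220 ± 19.4 CPM per kilobase in wild type and 182 ± 16.9 in knockout, and Id2 and Id1 carried most of it in both groups. Its ranges overlapped (196 to 243 against 159 to 205), and the sum is exposed to the length trend. After the length correction the log2 fold change was -0.07 for Id2 and 0.31 for Id1.

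**Figure D3:**
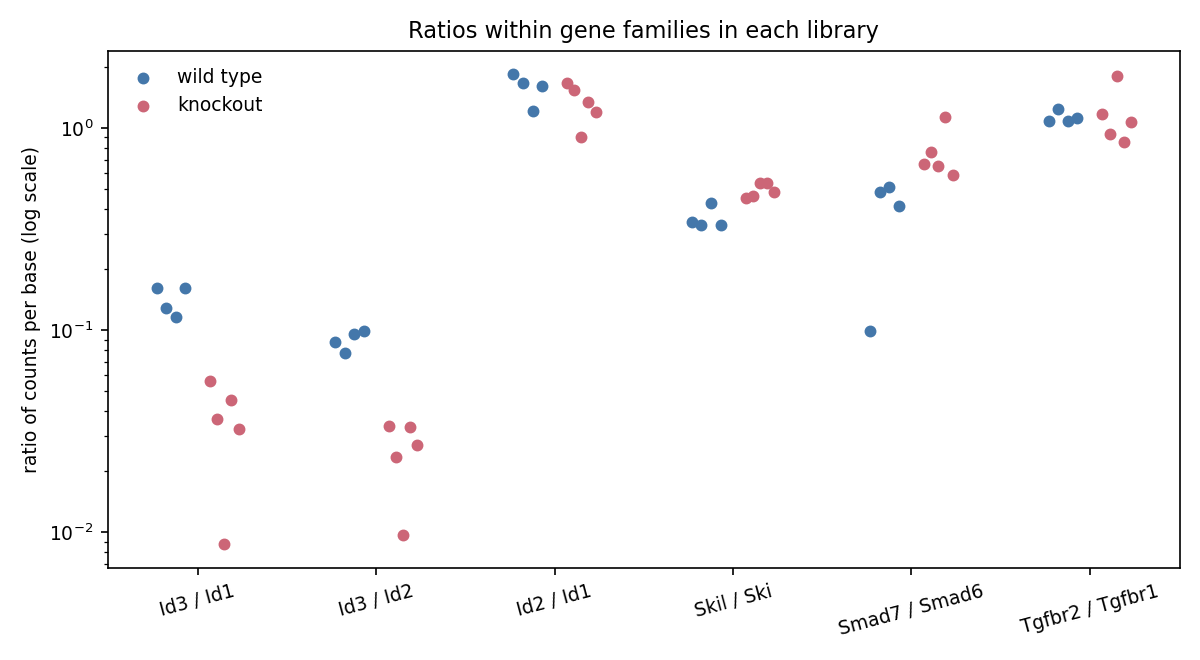
Ratios of counts per base between related genes, on a log axis, with a point for each of the 4 wild type and 5 knockout libraries. The ratios of Id3 to Id1, Id3 to Id2, Skil to Ski and Smad7 to Smad6 do not overlap between the groups, while those of Id2 to Id1 and of Tgfbr2 to Tgfbr1 do.

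Set in order by CPM per kilobase in wild type, Tgfb1 came first (203 ± 11.4), followed by Id2 (127 ± 8.37), Tgfbr2 (118 ± 10.2), Tgfbr1 (104 ± 3.35), Id1 (81.8 ± 15.4), Ski (71.7 ± 9.76), Skil (25.4 ± 1.24), Id3 (11.4 ± 1.63), Smad6 (2.24 ± 0.447) and Smad7 (0.797 ± 0.371; SD, n = 4 throughout). Neighbours whose libraries overlapped were Id2 and Tgfbr2, Tgfbr1 and Id1, and Id1 and Ski. In knockout the order of the scarce genes was Smad6 (3.14 ± 0.374), Id3 (2.67 ± 1.24) and Smad7 (2.33 ± 0.447; SD, n = 5), and these 3 overlapped. Id3 was thus well above both inhibitory SMADs in wild type and level with them in knockout.

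Upstream sequence is shown for Id3, whose transcript fell, and for Id2, the most abundant of the Id genes, to compare the promoters of 2 genes of the family. RefSeq promoter windows of GRCm38.p6 were matched by symbol for 7 of the 10 genes, Tgfb1, Tgfbr1, Tgfbr2, Smad6, Ski, Id2 and Id3. The 250 bases before the start site were searched on both strands for GGCGCC, a motif of BMP-responsive SMAD binding, for the SMAD box CAGAC, and for the palindromic SMAD-binding element GTCTAGAC, none of which contains another. Capitals mark matches. The Id3 window is chr4:136143572-136143821 (plus strand) and the Id2 window chr12:25096093-25096342 (minus strand), both written 5′ to 3′ on the strand of the gene.
Id3: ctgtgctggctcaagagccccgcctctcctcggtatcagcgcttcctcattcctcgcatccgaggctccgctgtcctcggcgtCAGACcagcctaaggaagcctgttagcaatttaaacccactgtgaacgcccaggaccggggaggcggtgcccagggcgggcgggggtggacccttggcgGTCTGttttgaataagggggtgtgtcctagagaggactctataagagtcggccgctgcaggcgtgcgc
Id2: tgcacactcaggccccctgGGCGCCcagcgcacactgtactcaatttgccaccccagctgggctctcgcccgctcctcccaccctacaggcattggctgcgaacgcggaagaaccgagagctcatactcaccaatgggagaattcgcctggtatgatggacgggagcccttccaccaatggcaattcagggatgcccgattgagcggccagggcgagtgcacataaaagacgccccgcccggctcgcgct

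The Id3 window held 2 SMAD boxes, starting 167 and 68 bases before the start site, and no GGCGCC. The Id2 window held 1 GGCGCC, starting 231 bases before the start site, and no SMAD box. Among the windows of 9824 tested genes, 40.5% held a SMAD box, 16.5% GGCGCC and 0.193% the palindrome, which none of the 7 windows held. Both Id windows had 18 CpG dinucleotides and a GC content of 62.8%, and their observed-to-expected CpG ratios of 0.732 (Id3) and 0.744 (Id2) lay near the median of 0.735 over tested genes. The most CpG-dense of the 7 was that of Ski, with 53 CpG dinucleotides and a ratio of 1.15. CpG-rich promoters are the usual sites of Polycomb repressive complexes, but no chromatin was measured here, and a match of letters is not a bound site.

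Beyond the 10 genes, a list of 77 other genes of the TGF-beta and BMP pathways was examined, of which 56 passed the count filter. Of these 11 were higher and 1 was lower, that is 19.6% higher and 1.79% lower, where 8.97% of all tested genes were higher and 11% lower. In either direction 21.4% were called, against 19.9% of all tested genes. The median log2 fold change was 0.26, against 0.04 over all tested genes, and a positive value was seen for 43 of the 56 (76.8%), against 54% of all tested genes and 69.2% of those over 4000 bases. Among the 43, Inhba, Smad3, Atoh8 and Acvr1c had 0 to 18 counts per wild type library and passed the count filter through their knockout libraries. Tgfb2, Tgfbr3, Eng, Thbs1, Mmp14, Tgif2 and Cdkn2b each had a wild type library with 0 to 4 counts and also needed knockout libraries to pass. The share of positive values and the median were thus partly tied to the filter, and Inhba is also among the 11 higher genes. Ltbp2 and Ltbp4 passed in the same way with negative values. The same filter acted on all tested genes. The list holds many long genes: 26 of the 56 exceed 4000 bases, 6 of them called higher and none lower, and among all 3494 tested genes of that length 14.7% were called higher and 3.01% lower. After the length correction 11 were again higher (19.6%, against 9.27% of all tested genes) and 1 lower (1.79%, against 6.88%), with 10 genes called under both treatments. Without knockout library 1, or without library 2, 7 were higher (of 55 and 56 tested). In those fits 788 of 12657 and 772 of 12595 tested genes were higher.

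Of 18 regulators that act on receptors or SMADs, 5 were higher and 1 was lower, 33.3% in all, against 19.9% of all tested genes (8.97% higher and 11% lower). Bambi, a pseudoreceptor without a kinase domain that blocks TGF-beta and BMP receptors, was at 2.69, 2.64, 4.21 and 0.758 CPM in the wild type group, while the knockout group had 10.1, 17.4, 9.13, 10.5 and 14.3 CPM. It had no overlap between groups and rose by 2.28 on the log2 scale (SE 0.39, adjusted p = 0.00105 by edgeR). Tgif1, a homeodomain corepressor of SMADs, rose from 39 ± 4.22 to 64.2 ± 6.4 CPM (SD over 4 wild type and 5 knockout libraries, as in what follows; log2 fold change 0.72). The ubiquitin ligases Nedd4l (from 4.81 ± 2.79 to 14.7 ± 2.21 CPM, 1.59) and Smurf1 (from 34.9 ± 5.48 to 49.9 ± 4.71 CPM, 0.51), which target SMADs and receptors, rose as well.

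Usp15, a deubiquitinase acting on the type I receptor and SMADs, rose by less (log2 fold change 0.36, adjusted p = 0.0333 by edgeR). It was not called without wild type library 3 or 4, or without knockout library 1, 2, 4 or 5 (adjusted p from 0.0574 to 0.096). Fkbp1a, a 1641-base gene whose product holds the type I receptor inactive, fell by 0.35 as counted (adjusted p = 0.0146 by edgeR) and was not called after the length correction (-0.21, adjusted p = 0.0973) or with libraries scaled by their totals (-0.23, adjusted p = 0.0767). As background, Bambi, Tgif1, Smurf1 and Nedd4l are known as inhibitors of signalling, and Usp15 is known to sustain it. Regulators of the list that were not called as counted include Smurf2 (0.39), Pmepa1 (0.29), Ppm1a (0.36), Tgif2 (1.81), Strap (-0.20) and Ldlrad4 (-0.10). The calls therefore do not describe inhibitors of the pathway as a class.

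Among ligands, 2 of 14 passed the count filter. Inhba, the subunit of activin A, had 0, 8, 2 and 0 counts in wild type and 81, 223, 103, 52 and 248 counts in knockout. Its fitted difference of 4.90 on the log2 scale (SE 0.89, adjusted p = 0.00165 by edgeR) rests on 2 wild type libraries with any counts and ran from 4.46 to 6.49 with 1 library left out. Of the other ligands, 11 had no counts in any wild type library and 4 of these none in knockout, and Tgfb2 differed by 0.58 on the log2 scale (SE 0.87, adjusted p = 0.697 by edgeR).

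Of 10 tested receptors, 2 were higher (20%, against 8.97% of all tested genes), a share that rests on few genes. The activin receptor Acvr2a rose from 7.74 ± 1.14 to 12 ± 0.731 CPM (log2 fold change 0.63, adjusted p = 0.0213 by edgeR), and its adjusted p was 0.0527 to 0.0682 without knockout library 1, 2 or 5. The BMP receptor Bmpr1a rose from 15.7 ± 5.63 to 24.8 ± 3.43 CPM (0.66, adjusted p = 0.0389 by edgeR). It was not called after the length correction (adjusted p = 0.0852), nor without wild type library 1 or 4 or knockout library 1, 2, 4 or 5 (adjusted p from 0.0503 to 0.109). None of the 5 tested SMADs that carry the signal was called by edgeR, where 19.9% of all tested genes were called. Smad2 (0.09, interval -0.09 to 0.28) and Smad4 (-0.20, interval -0.49 to 0.08) overlapped between the groups, and Smad3 was scarce, with 0.295 ± 0.39 CPM in wild type libraries against 1.36 ± 0.138 CPM in knockout ones (2.14, adjusted p = 0.151 by edgeR).

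No gene of latent TGF-beta storage and activation was called as counted (0 of 9 tested, against 19.9% of all tested genes). Nrros, which holds latent TGF-beta 1 on myeloid cells, had a log2 fold change of -0.33 (adjusted p = 0.0517 by edgeR) and of -0.38 after the length correction (adjusted p = 0.0275). Of the E proteins, the partners of ID proteins, Tcf12 rose from 49.4 ± 3.67 to 75.6 ± 3.87 CPM without overlap (0.61, SE 0.09, adjusted p = 3.67e-04 by edgeR), while Tcf3 (0.02, interval -0.26 to 0.30) and Tcf4 (-0.09, interval -0.51 to 0.34) overlapped. Of 9 tested target genes, 2 were higher (22.2%, against 8.97% of all tested genes), again a share of few genes. Tgm2, a transglutaminase, rose from 345 ± 41 to 498 ± 51.4 CPM (0.53, adjusted p = 0.0021 by edgeR). Junb, an AP-1 subunit that many stimuli induce, went from 621 ± 246 to 1070 ± 139 CPM (0.78, adjusted p = 0.0477 by edgeR). It was not called under 12 of 20 alternative settings, among them leaving out wild type library 2 or 4 or any 1 knockout library (adjusted p from 0.0674 to 0.11). The extracellular matrix gene Tgfbi (0.06, interval -0.09 to 0.21) and the early TGF-beta target Klf10 (-0.17, adjusted p = 0.199) were not called.

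**Figure D4:**
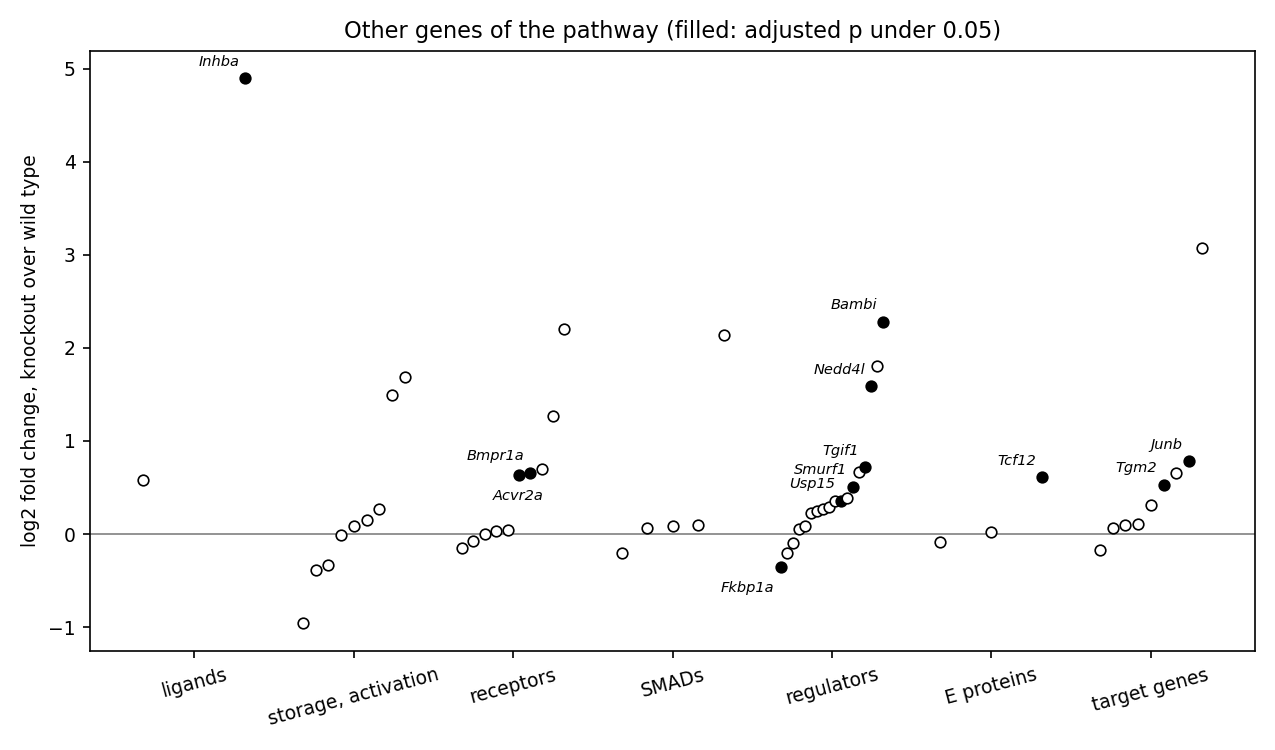
Points give the log2 fold change, knockout over wild type, of the 56 tested pathway genes by role, filled and named where the adjusted p of edgeR is under 0.05. The regulators hold 5 of the 11 higher genes and the 1 lower gene, and no SMAD or storage gene is filled. Each role holds few genes, and 19.9% of all tested genes were called.

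Markers of other cells were measured beside these results. Smad6, Smad7, Bambi and Id3 are also active in endothelial cells. Of 10 endothelial markers, 6 were tested and Esam was called higher (16.7% of those tested, against 19.9% of all tested genes called in either direction). Esam had 5, 0, 0 and 0 counts in wild type and passed the count filter through its knockout libraries. Tek, Tie1 and Emcn had no counts in wild type, and Vwf, the most abundant, was at 157 ± 22.3 CPM in the wild type group, while the knockout group had 120 ± 26.5 CPM. The other 9 markers, summed after the values of Vwf were seen, gave 1.05 to 4.97 CPM in the wild type group, while the knockout group had 6.46 to 9.13 CPM. All 10 endothelial markers, Vwf included, summed to 126 to 176 CPM in wild type and 87.3 to 151 CPM in knockout. The part of endothelial cells in these results was not tested. Of 8 fibroblast markers, 4 were tested and none was called. The summed level of all 8 ran from 0 to 6.37 CPM in wild type libraries and from 4.35 to 9.82 CPM in knockout ones. Of 8 lymphocyte markers, whose cells can express Id2 and Id3, 3 were tested and none was called. All 8, tested or not, summed to 3.28 to 9.68 CPM in wild type libraries and 1.68 to 7.76 CPM in knockout ones. Of 9 tested epithelial markers Hopx was called lower (11.1%), and of 6 neutrophil markers Csf3r was called higher (16.7%), both below the 19.9% of all tested genes. The part of these cells in the results was not tested either.

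Among 10173 other tested genes of sufficient level, those nearest in pattern to the 3 called genes were found by the root mean square difference between log2 CPM profiles over the 9 libraries, each centred on its mean. Nearest to Id3 were the fatty acid binding protein gene Fabp1 (difference 0.274) and the adhesion receptor gene Cd2 (0.33), against a median of 1.3 over all candidates. Fabp1 went from 224 ± 33.8 to 67.5 ± 28.7 CPM and Cd2 from 293 ± 31.6 to 101 ± 40.6 CPM. Nearest to Smad7 were the heat shock protein gene Hspa2 (0.248) and Rap1gap2 (0.263), and nearest to Skil were Zc3h15 (0.0439) and Mfn1, which encodes a mitochondrial fusion protein (0.0477).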

How the data were processed

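The deposited values are counts, whole numbers of reads per gene, listed with gene lengths in bases. The authors made them with featureCounts on mm10, per the submitters' processing notes. The aligner, annotation and strandedness were not given in the sources used here. A joint table was used, which equalled the 9 tables of single libraries. Symbols and positions came from RefSeq (GRCm38.p6), which named 25275 of 27179 identifiers, and none of the 10 genes overlaps another counted gene. Counts were tested in R 4.3.3 with edgeR 4.0.16 (robust quasi-likelihood fit, TMM scaling, filter by group), tested on simulated data, with Benjamini-Hochberg adjustment and a threshold of 0.05. Standard errors were derived from the test statistic, and 95% intervals from the fit's degrees of freedom. CPM were computed here from the deposited counts, with a prior count of 2 for log2 CPM. The length correction fitted, for every library, a robust loess (span 0.5) of the deviation from mean log2 CPM against log2 gene length, and used it, centred on its median, as an offset. The GC correction used GENCODE vM21 transcripts (92.3% of tested genes). Named genes were Suz12, the 10 genes, every other pathway gene past the threshold, and for each called gene the 2 nearest in pattern among genes averaging a log2 CPM of 1 or more. Other genes, and the 2 printed promoters, are named after their values were seen. The genes and lists were chosen with earlier results of these data known. The alternatives were RLE factors, library size only, no filter, a filter of 1 CPM in 4 libraries, DESeq2 1.42.0, limma-voom (limma 3.58.1), leaving out each library, the replicate number as a block, the corrections above, and Xist as a covariate.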

Additional observations from a re-analysis of the deposited data

Results flagged for a closer look

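Of 23 genes examined for a library apart from its group (46 groups, of which chance alone marks about 5%), 3 had one. Tgfbr1 was lowest in knockout library 3, at 8.68 log2 CPM, with the next library at 9.27. Smad7 was lowest in wild type library 1, at 0.27 log2 CPM against 1.96 in the next library. Id3 was lowest in wild type library 2, at 3.12 log2 CPM against 3.53 in the next, within a group of narrow spread. Without that library the log2 fold change of Id3 was -2.20, without wild type library 1 that of Smad7 was 1.26, and without knockout library 3 that of Tgfbr1 was 0.18.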

How the results depend on the processing

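Under 20 alternative settings Smad7 (1.26 to 1.74), Skil (0.34 to 0.55) and Id3 (-2.28 to -1.73) kept their direction and passed the threshold in each setting, and Smad6 passed in none. With libraries scaled by their totals, 1966 genes were higher, no other pathway gene was lower (0), and Tgfb1 (0.07), Ski (0.07) and Id1 (0.05) changed sign. RLE factors gave 2 lower pathway genes, DESeq2 2 and limma-voom 2, and limma-voom 17 higher ones. Over all 12840 tested genes these settings called 1430, 1614 and 1447 lower, and limma-voom called 1330 higher. Both DESeq2 and limma-voom called 2 of the 10 genes lower, Id2 beside Id3. The length correction left 883 genes lower and changed the sign of Tgfb1 (0.01), Tgfbr1 (-0.04), Tgfbr2 (-0.05) and Id1 (0.31). Length and GC together left 870 lower and gave Tgfbr1 -0.05, Tgfbr2 -0.07 and Id1 0.26.

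Replicate numbers did not pair the libraries (correlations of deviations between same-numbered libraries 0.0364, 0.0324, -0.0565 and 0.115, and only number 4 matched best with its own). With the number as a block 749 genes were higher and 1103 lower, the 3 calls among the 10 genes held, and Acvr2a (adjusted p = 0.0825, edgeR) and Junb (0.0879) were not called. Block and length correction together gave 632 higher and 555 lower over all genes, 7 higher and 0 lower pathway genes, and Tgfb1 0.01, Tgfbr1 -0.06, Tgfbr2 -0.04 and Id1 0.32. Smurf1 was not called under that pair of choices (adjusted p = 0.0812, edgeR).

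Leaving out 1 library gave 772 to 1434 genes higher and 1074 to 1521 lower, 1 to 2 of the 10 genes lower, and 7 to 15 pathway genes higher and 1 to 2 lower. It moved Tgfb1 between -0.08 and 0, Ski between -0.11 and 0.03 and Id1 between -0.14 and 0.08. The cause of these shifts was not tested. Among the 10 genes, the lowest counts in a library were 25 for Smad7 and 29 for Id3, and Bambi (18), Nedd4l (23), Inhba (0) and Smad3 (0) also had libraries with few counts, which limits the precision of their values.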
